A study of Mus musculus with 15 samples.

Results

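The L2, CR1 and MIR repeats are ancient transposable elements (TEs) that no longer move in the mouse genome. Their small RNA reads were followed in 6 libraries of E16.5 foetal testis, 3 from Tex15+/- controls and 3 from Tex15-/- embryos. Members were all TE-annotated sequences (type teRNA) of 18 to 32 nt in a set of repeat groups. Their repeat family was L2, CR1 or MIR, or their class began with DNA, a rule that uses no measured value. This gave 22 of the 875 TE names: 4 of L2, 14 of CR1 and 4 of MIR. No sequence of the tables analysed here carried a DNA transposon class, so DNA transposons have no values. The members held 234332 distinct sequences, of which 97796 were 25 to 30 nt long.

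Each library was made from 6 foetal testes of mice on a mixed B6CBAF1/Crl and C57BL/6N background. The Tex15- allele carries a CRISPR/Cas9-made insertion in an exon of Tex15, and the mice of this line go back to 1 founder. The RNA came from whole testis, so fewer germ cells and less RNA per germ cell cannot be told apart. Libraries held 11184854 to 83102785 reads of 18 to 32 nt, and control replicate 2 was the deepest. Marker miRNAs of germ cells, 9 of 9 detected in every library, summed to between 1258 and 1537 CPM (relative to all mature miRNA reads) in controls and between 927 and 1365 in the knockout. Those of gonadal somatic cells summed to 2351 to 2473 in controls and 1755 to 2523 in the knockout. The ranges of both sums overlapped between genotypes, as did those of the markers of endothelium, liver and muscle, 1 miRNA each and detected in every library. Within the lists, miR-290a-5p, miR-295-3p, miR-302a-3p and miR-202-5p were lower in every knockout library than in every control. For miR-290a-5p the values were 9.34, 11.4 and 10.8 CPM in controls and 4.57, 4.23 and 6.52 in the knockout. The other members of both lists overlapped, and miR-302a-3p had as few as 1 read. The 2 blood markers, both detected in every library, summed to 112, 77.2 and 107 CPM in control replicates 1, 2 and 3 and to 51.4, 69.3 and 74.1 CPM in the knockout, lower in every knockout library. The part of these lists in the results was not tested. No small RNA value checks the Tex15 genotype.

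piRNAs are the small RNAs that guide PIWI proteins. In foetal mouse germ cells they load MILI and MIWI2, and MIWI2 directs silencing of young, active TEs in the nucleus. A primary piRNA usually starts with T (U in RNA). A piRNA made by ping-pong, in which a PIWI protein cuts a transcript opposite its guide, tends to carry A at base 10, and its 5′ end overlaps that of its partner by 10 nt. L2 and CR1 (which includes L3) are old LINE families, and MIR is an old SINE family derived from a tRNA gene. L1Md_T, a young LINE1 subfamily, and IAPEz-int, the internal part of a young endogenous retrovirus, served for comparison.

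Abundant 25 to 30 nt reads under ancient repeat names are shown to compare their ends. The first set holds the 5 highest reads that shared no stretch of 16 bases with a mature miRNA, and an L3b read, the highest CR1 read with a single place, which ranked 114 over all ancient 25 to 30 nt sequences. All matched GRCm38 at exactly 1 place. They are written 5′ to 3′ with bases 1 and 10 in capitals.
MIR read of 27 nt, chr14:55795630-55795656, plus strand, outside annotated genes: TaataaaatTctgctctgttaactagc
MIR read of 26 nt, chr13:41818598-41818623, plus strand, opposite to an intron of Adtrp: TgagaaaaaCgggctaaagagagatt
MIR read of 25 nt, chr8:84567469-84567493, minus strand, opposite to an intron of Cacna1a: TgggatgttGgtggccatgagctcc
MIR3 read of 27 nt, chr15:93183979-93184005, minus strand, outside annotated genes: TgatctgacTgtgcaactctggggaag
L2b read of 27 nt, chr13:99663287-99663313, minus strand, outside annotated genes: TaccaaaccAaaacggctggcagactg
L3b read of 29 nt (a CR1 name), chr14:27105763-27105791, plus strand, in an exon of Il17rd: AagaaaggcTgaactcacccagtgtgatc

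All but the L3b read start with T, and only the L2b read has A at base 10. The MIR read on chromosome 14 was the highest of the set. It made up 0.765%, 0.516% and 0.438% of ancient 25 to 30 nt reads in control replicates 1, 2 and 3 and 0.599%, 0.220% and 0.743% in knockout replicates 1, 2 and 3. The genotypes overlapped.

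Of the 10 most read ancient sequences of 25 to 30 nt, 8 extended mature miRNAs, among them the 2 highest. Examples are shown beside the miRNA to mark the stretch they share. In the reads, capitals mark the bases beyond the shared stretch. In the mature sequences, which are the most read ones under each miRNA name in the deposited tables, capitals mark the seed (bases 2 to 8).
miR-378a-3p: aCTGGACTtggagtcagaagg
MIRc read of 25 nt: actggacttggagtcagaaggCTAT
MIRc read of 25 nt: actggacttggagtcagaaggCTTT
miR-151-3p: cTAGACTGaggctccttgagg
L2c read of 25 nt: ctagactgaggctccttgaggTAAT
L2c read of 25 nt: ctagactgaggctccttgaggTAAA
miR-708-5p: aAGGAGCTtacaatctagctggg
L2a read of 26 nt: aaggagcttacaatctagctgggATT
L2c read of 26 nt: aaggagcttacaatctagctgggAAT

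These reads begin at the first base of the miRNA and end in 3 or 4 further bases rich in A and T. The 3 miRNAs have different seeds. The first MIRc read took 0.868%, 1.04% and 0.722% of ancient 25 to 30 nt reads in control replicates 1, 2 and 3. It took 1.24%, 2.51% and 2.13% in the knockout, above every control. The total of ancient 25 to 30 nt reads was lower in the knockout, at 0.563 times the control mean against all 18 to 32 nt reads. Whether this read itself was more frequent in the knockout was not tested. Of the ancient 25 to 30 nt reads that shared 16 bases with a mature miRNA, 94.9% to 96.7% began with the shared stretch. In these reads 82.8% to 84.1% of the bases after it were A or T, and 99.1% to 99.6% of the reads had no exact match in GRCm38.

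The lengths of ancient repeat reads were first set against those of the young elements, to see whether they look like piRNAs. They did not: the peak in all 6 libraries was at 22 nt, the length of a miRNA, with 31.4% to 32.8% of 18 to 32 nt reads in controls and 36.3% to 39.0% in the knockout. Over the 6 libraries 25 to 30 nt reads made up 12.9% ± 4.87 (SD, n = 6) of ancient repeat reads, 80.8% ± 1.09 of L1Md_T reads and 80.6% ± 1.06 of IAPEz-int reads. The ancient share was lower in 6 of 6 libraries against either element (two-sided exact sign-flip permutation test over libraries, p = 0.031, the smallest it can give, and adjusted p = 0.031 over the 6 comparisons of length, base 1 and base 10). With each distinct sequence counted once the difference from L1Md_T was -34.2 points, against -67.8 with reads. That from IAPEz-int was -33.0 points, against -67.7. By genotype the mean ancient share was 17.1% in controls and 8.75% in the knockout. Without reads that share 16 bases with a mature miRNA it was 39.2% and 24.8%, nearer to the means of both young elements but still below them.

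Most of the 22 nt peak came from miRNA sequences that carry a repeat name. Between 76.4% and 84.04% of the 21 to 23 nt reads of ancient repeats shared 16 bases with a mature miRNA. The same share was 57.8% to 68.0% for all other TE names together. miR-151-3p alone, found mainly under L2c, made up 20.5% to 24.1% of the 18 to 32 nt ancient reads in controls and 26.2% to 30.6% in the knockout, a difference without overlap. miR-378a-3p, under MIRc, followed with 7.26% to 8.51% and 9.09% to 10.1%. miR-125a-5p, under L2, took 2.78% to 3.497% in controls and ranged from 1.27% to 8.99% in the knockout, so the genotypes overlapped. The repeat name of such a sequence was often not stable. Of 21 to 23 nt ancient reads found in more than 1 library, 65.5% to 74.1% had an ancient repeat name in every library, against 95.5% to 98.2% of 25 to 30 nt reads.

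Within 25 to 30 nt, all ancient reads were highest at 26 nt in the 3 controls and knockout replicate 1, and at 25 nt in knockout replicates 2 and 3. At 26 nt they held 4.44%, 4.23% and 5.19% of 18 to 32 nt reads in control replicates 1, 2 and 3 and 2.62%, 1.62% and 2.497% in the knockout. The miRNA-sharing reads were then left out, a choice made after the data were seen. The highest length stayed 22 nt in 5 libraries and was 21 nt in knockout replicate 1. Within 25 to 30 nt the mode then was 26 nt in 5 libraries and 27 nt in knockout replicate 2. L1Md_T reads peaked at 27 or 28 nt and IAPEz-int reads between 27 and 29 nt.

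**Figure D1:**
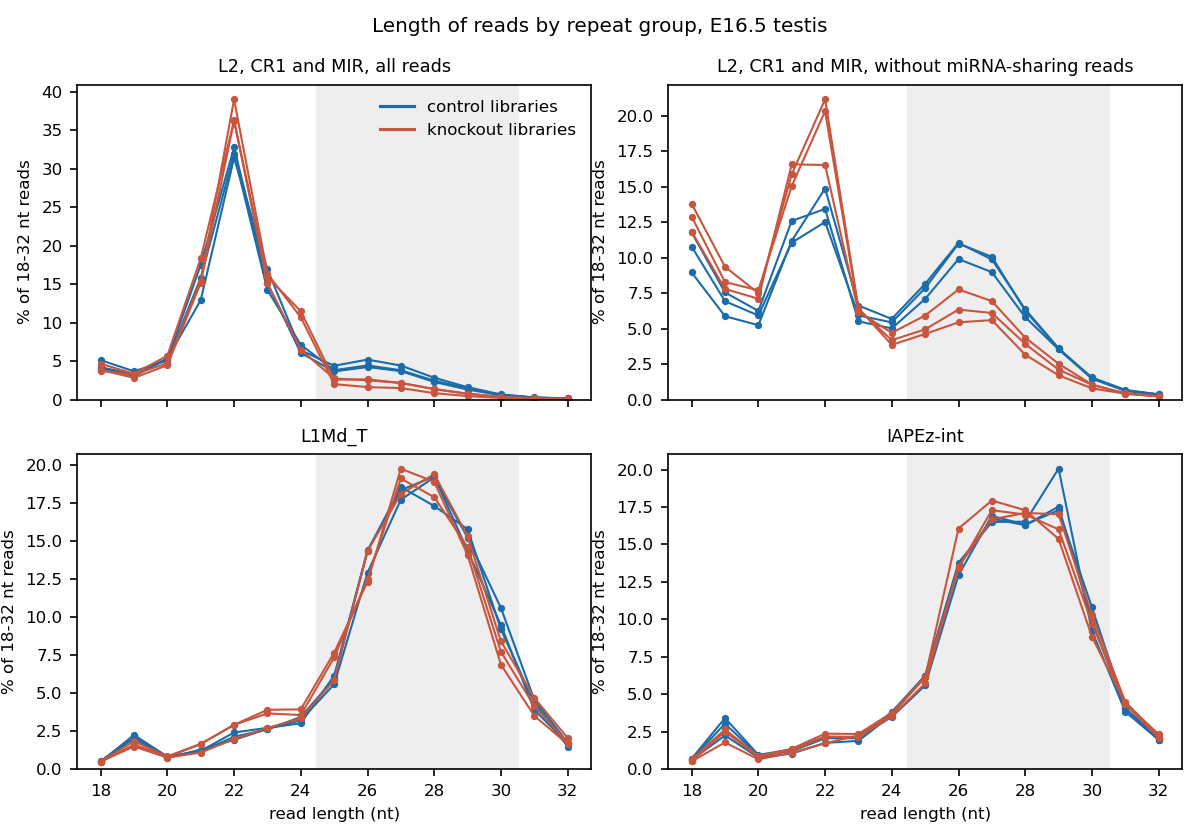
Share of 18 to 32 nt reads (%) at each read length (nt) for L2, CR1 and MIR together, for the same without reads that share 16 bases with a mature miRNA, for L1Md_T and for IAPEz-int, 1 line per library (blue control, red knockout) and 25 to 30 nt shaded. Ancient repeat reads peaked at 22 nt, with a smaller mode at 26 nt in the controls. The young elements peaked at 27 to 29 nt, and each panel has its own scale.

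Most 25 to 30 nt reads began with T. T opened 79.9%, 79.8% and 79.6% of ancient reads in control replicates 1, 2 and 3 and 77.2%, 73.6% and 74.1% in knockout replicates 1, 2 and 3. All knockout values lay below all controls (difference -4.84 percentage points, p = 0.1 by the exact permutation test, two-sided, with 3 against 3 libraries allowing no smaller value). It was -0.50 points with each distinct sequence counted once, -0.77 with 26 to 29 nt reads and -2.44 without the 10 highest sequences (p = 0.5, 0.3 and 0.1, exact permutation test). With 24 to 32 nt reads it was -3.40 points (exact permutation test, p = 0.8) and the genotypes overlapped, with knockout replicate 1 above every control. The miRNA-sharing reads, many of which start with A or C, moved with this difference. They made up 5.99% to 7.22% of ancient 25 to 30 nt reads in controls and 10.8% to 15.9% in the knockout. That total was lower in the knockout against all 18 to 32 nt reads. Without the miRNA-sharing reads T opened 85.3%, 85.0% and 83.98% of reads in controls and 85.3%, 86.1% and 84.8% in the knockout. The genotypes then overlapped and the difference was 0.64 points the other way (exact permutation test, p = 0.4).

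The families were compared in the same way. In L2, T at base 1 was 75.6% ± 0.49 (SD, n = 3) in controls and 67.6% ± 2.997 in the knockout, and 83.8% ± 0.56 and 83.4% ± 0.85 without miRNA-sharing reads. In MIR it was 82.5% ± 0.56 and 79.7% ± 1.55, and 85.6% ± 0.94 and 86.8% ± 1.36 without them. CR1, of whose 25 to 30 nt reads at most 0.574% shared a miRNA stretch, had 82.3% ± 1.03 in controls and 83.0% ± 1.19 in the knockout. The exact permutation tests gave p = 0.1 for L2 and for MIR with all reads and p = 0.4 for CR1, and p = 0.5, 0.5 and 0.4 for L2, MIR and CR1 without miRNA-sharing reads.

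T at base 1 was more frequent in ancient repeat reads than in those of the young elements. Over 6 libraries the mean was 77.4% ± 2.93 (SD, n = 6), against 67.1% ± 1.56 for L1Md_T and 69.1% ± 2.07 for IAPEz-int. It was higher in 6 of 6 libraries against both (adjusted p = 0.031, exact sign-flip permutation test). The differences of 10.2 and 8.25 points were 23.9 and 24.9 points with each distinct sequence counted once, and 17.9 and 15.96 points without miRNA-sharing reads. With 24 to 32 nt reads, which bring in 24 nt reads, the ancient value was 65.4% and the difference was -1.45 points against L1Md_T and -3.25 points against IAPEz-int, with adjusted p = 0.71875 and 0.375 (exact sign-flip test). Most 24 nt ancient reads shared a miRNA stretch.

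Base 10 also differed between ancient and young repeats. A stood at base 10 in 25.6%, 26.3% and 27.9% of ancient 25 to 30 nt reads in control replicates 1, 2 and 3 and in 23.2%, 21.8% and 24.6% in the knockout. The mean over 6 libraries was 24.9% ± 2.20 (SD, n = 6), compared with 51.2% ± 1.42 for L1Md_T and 49.1% ± 2.47 for IAPEz-int. It was lower in 6 of 6 libraries against each (adjusted p = 0.031, exact sign-flip permutation test). The difference from L1Md_T, -26.3 points, was -14.4 points with each distinct sequence counted once. In L1Md_T, A at base 10 exceeded the mean of A at bases 2 to 9 and 11 to 25 by 26.7 points, and in IAPEz-int by 22.8 points. In ancient repeats without miRNA-sharing reads it was 1.22 points below that mean, with differences from -2.89 to 1.03 points over the libraries (p = 0.15625, adjusted p = 0.176 over 9 added comparisons, exact sign-flip test). It exceeded that mean in 1 of 6 ancient repeat profiles and in 6 of 6 of either young element. For these ancient reads A at base 10 was 25.5%, 26.4% and 27.7% in control replicates 1, 2 and 3, beside means of 26.1%, 26.6% and 26.6%. In the knockout it was 23.4%, 22.5% and 24.6%, beside means of 25.9%, 25.4% and 26.8%, so it lay further below there.

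**Figure D2:**
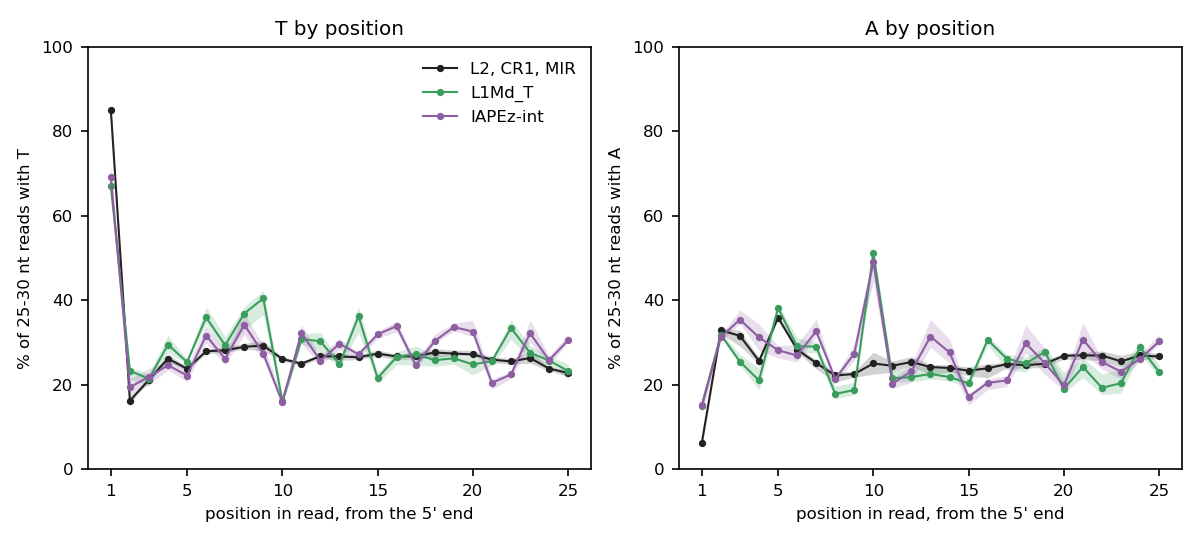
Share (%) of 25 to 30 nt reads with T (left) and with A (right) at each of the first 25 positions, for L2, CR1 and MIR without miRNA-sharing reads, L1Md_T and IAPEz-int; lines are means of 6 libraries and shading runs from the lowest to the highest library. All 3 have a high T at position 1, and a peak of A at position 10 is seen in L1Md_T and IAPEz-int but not in the ancient repeats.

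Reads of piRNA size with no annotation gave a further comparison. They were not matched to the genome, so whether they lie outside repeats was not tested. The deposited tables class them as others, with no name, family or gene. Their T at base 1 was 82.1% to 84.2% and their A at base 10 was 22.6% to 26.8%. Ancient repeat reads without miRNA-sharing reads had 1.59 points more T at base 1, higher in 6 of 6 libraries by 0.678 to 2.92 points (adjusted p = 0.0469 over 9 added comparisons, exact sign-flip permutation test). At base 10 they differed by 0.153 points, higher in 3 of 6 libraries, with differences from -0.899 to 0.923 points (adjusted p = 0.625, exact sign-flip permutation test). These comparisons were added after the data were seen, and reads with no annotation were not filtered for miRNA stretches. With all ancient reads kept, T opened 73.6% to 79.9% of them, below the reads with no annotation in 6 of 6 libraries.

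**Figure D3:**
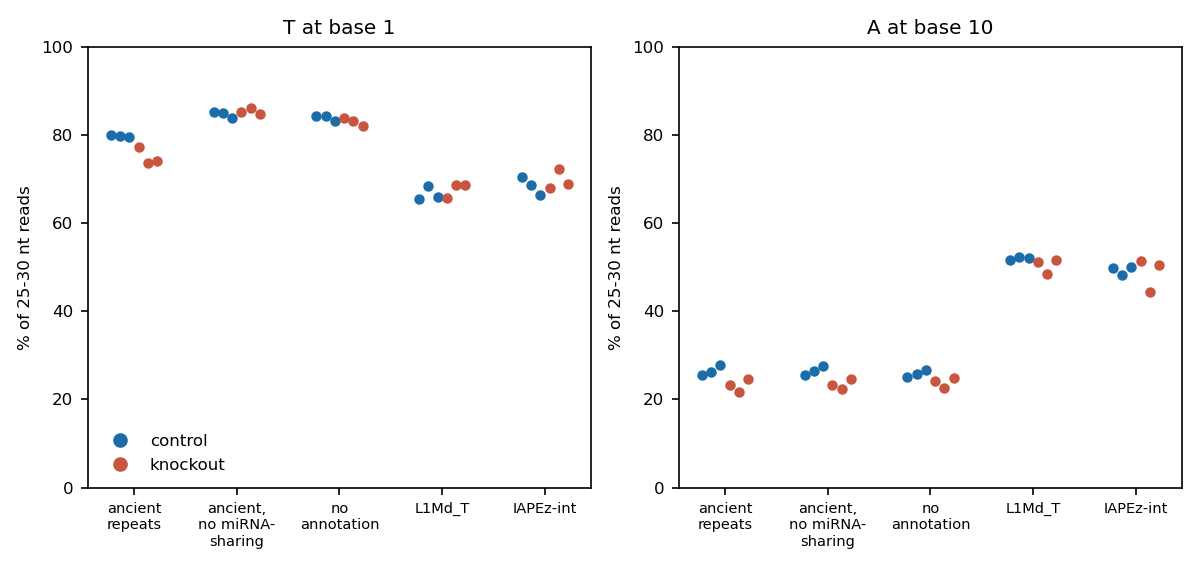
Share (%) of 25 to 30 nt reads with T at base 1 (left) and A at base 10 (right), 1 point per library (blue control, red knockout), for ancient repeats, ancient repeats without miRNA-sharing reads, reads with no annotation, L1Md_T and IAPEz-int. At base 10 the ancient repeats (21.8% to 27.9%) lie with the reads of no annotation (22.6% to 26.8%) and below both young elements.

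Knockout and control differed at base 10 by -3.38 points, without overlap (exact permutation test, p = 0.1, the smallest possible). The difference was -8.43 points with 24 to 32 nt reads and -2.01 points with each distinct sequence counted once. The difference was -3.03 points without miRNA-sharing reads. By family and without those reads it was -3.11 points in L2, -2.98 in MIR and -2.96 in CR1, and the CR1 genotypes overlapped. Reads with no annotation had 25.03%, 25.8% and 26.8% in controls and 24.3%, 22.6% and 24.8% in the knockout.

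A at base 10 was more frequent among the ancient reads that did not begin with T. Without miRNA-sharing reads, A stood at base 10 in 37.2%, 39.9% and 42.1% of them in control replicates 1, 2 and 3, and in 33.7%, 26.9% and 34.3% in the knockout. Among reads beginning with T it was 21.6% to 24.9% over all libraries. The difference between both kinds of read had the same sign in 6 of 6 libraries, with a mean of 12.5 points (adjusted p = 0.0469 over 9 added comparisons, exact sign-flip permutation test). In IAPEz-int it was 24.9 points and in L1Md_T 12.2 points. Reads without T at base 1 were few, from 1012 in knockout replicate 2 to 15656 in control replicate 2. Between genotypes their A at base 10 differed by -8.07 points without overlap (exact permutation test, p = 0.1).

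Opposite-strand overlaps bear on the same question through position rather than base. Of ancient 25 to 30 nt reads without a miRNA stretch, 77.5% to 80.8% matched GRCm38 at exactly 1 place, against 2.53% to 3.26% of L1Md_T reads. Of 25 overlap lengths, 10 nt was the most frequent in all 3 control libraries, with 50, 270 and 103 pairs of 5′ positions against medians of 24, 172.5 and 54 at the other lengths. In the knockout it had 25, 7 and 17 pairs against medians of 16, 4 and 16, and ranked 1, 2 and 7. The neighbouring overlaps of 9 and 11 nt had fewer pairs than 10 nt in 6 of 6 libraries. The count at 10 nt was 1.57 to 2.08 times the median of the other lengths in controls and 1.06 to 1.75 times in the knockout. For uniquely placed L1Md_T reads it was 1.77 to 2.88 times in controls and 2.07 to 7.50 times in the knockout, and for IAPEz-int 2.10 to 4 times and 2 to 2.89 times. The 7.50 for L1Md_T came from 15 pairs against a median of 2 in knockout replicate 2. Knockout replicates 1 and 3 gave 2.07 and 2.11 times. In controls 10 nt ranked 2, 5 and 2 for L1Md_T and 1, 6 and 1 for IAPEz-int. In the knockout the ranks were 3, 1 and 6 for L1Md_T and 3, 1 and 4 for IAPEz-int. For ancient repeats summed over libraries, 10 nt held 6.36% of 6646 pairs in controls and 5.53% of 886 pairs in the knockout, where another length reached 5.76%. Control replicate 2 gave 270 of the 423 control pairs at 10 nt. By library 10 nt held 7.97%, 5.91% and 7.10% of pairs in control replicates 1, 2 and 3 and 6.58%, 6.93% and 4.20% in the knockout, so the genotypes overlapped. Reads without a unique place were not used.

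**Figure D4:**
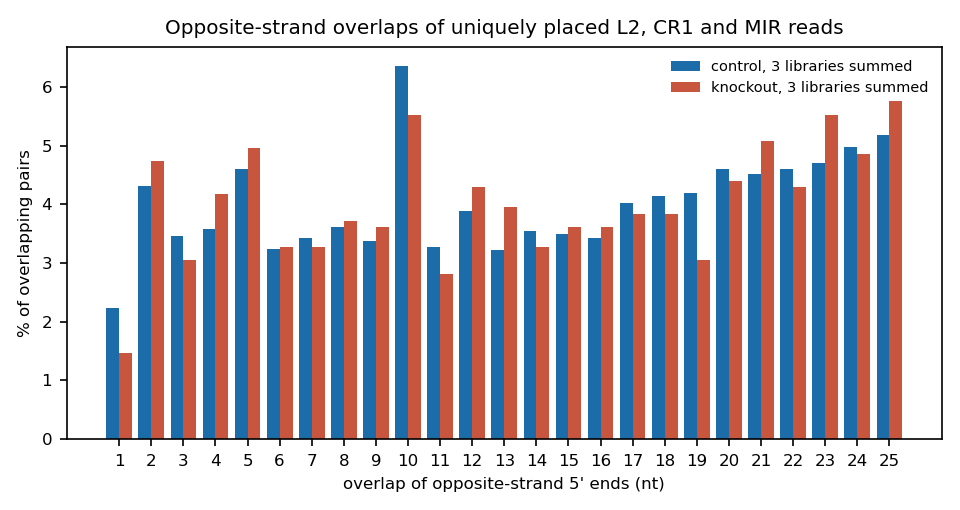
Share (%) of pairs of opposite-strand 5′ positions at each overlap from 1 to 25 nt, for uniquely placed 25 to 30 nt reads of L2, CR1 and MIR without miRNA-sharing reads, summed over 3 control (blue, 6646 pairs) and 3 knockout (red, 886 pairs) libraries. The bar at 10 nt is the highest in controls (6.36%), while in the knockout (5.53%) another length is higher (5.76%). By library the shares at 10 nt overlapped between genotypes, with 5.91% to 7.97% in controls and 4.20% to 6.93% in the knockout.

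The reads were spread over the genome, with few reads per distinct sequence. Without miRNA-sharing reads, 65.5% to 87.0% of distinct 25 to 30 nt ancient sequences were read once in a library, and 259 sequences were found in all 6 libraries while 85167 were found in 1. There were 1.28 to 1.93 reads per distinct sequence, compared with 4.96 to 10.5 for L1Md_T and 4.75 to 9.16 for IAPEz-int. The share of distinct sequences read once was 57.3% to 68.1% in L1Md_T and 58.4% to 66.7% in IAPEz-int, both of which had more reads in every library. Uniquely placed reads fell in 21604 windows of 10000 bp. The 10 highest windows held 7.25% to 11.05% of them and the 100 highest 24.3% to 27.5%.

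A few windows stood above this scatter. The highest, chr15:36650001-36660000, holds the lincRNA gene Gm46515, had reads of both strands (46.0% plus) and gave 1.83%, 1.37% and 1.06% of ancient reads in control replicates 1, 2 and 3 and 1.27%, 1.50% and 1.08% in the knockout. The second, chr14:55790001-55800000, holds no annotated gene and was 98.3% plus. The fifth, chr8:84560001-84570000, lies in Cacna1a, a calcium channel gene of the plus strand, and 5.99% of its reads were plus, so most were opposite to the gene. The third, chr15:93180001-93190000, gave 0.964%, 1.14% and 1.204% in controls and 1.06%, 0.179% and 1.06% in the knockout. Knockout replicate 2 was far below the other 5 libraries there, and it was also lowest at the fourth and sixth windows, on chromosomes 13 and 10.

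Most uniquely placed ancient repeat reads lay outside exons. The annotation gave each sequence a single type in a library, and sequences typed as genes or tegRNA were not members. The exon share therefore depends on that annotation step. In controls 48.0% to 50.3% of uniquely placed reads without a miRNA stretch lay outside annotated genes, 23.8% to 25.5% in introns on the strand of the gene and 16.4% to 16.7% in introns on the opposite strand. Exons on the strand of the gene held 7.31%, 6.83% and 7.44% in control replicates 1, 2 and 3 and 8.89%, 15.1% and 9.98% in the knockout, without overlap (exact permutation test, p = 0.1, the smallest possible). Knockout replicate 2 was highest in exons and lowest outside genes, with 38.1% against 46.6% to 50.3% in the other 5. T at base 1 was 82.4% to 88.9% in every context and library. The gene with the highest mean share of same-strand exon reads was Noct, which encodes nocturnin, with 30, 125 and 35 reads in controls and 45, 42 and 36 in the knockout.

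The amount of ancient repeat reads was compared between genotypes to see how this background behaves when Tex15 is lost. They made up 0.547%, 0.483% and 0.545% of TE-annotated 25 to 30 nt reads in control replicates 1, 2 and 3 and 0.290%, 0.433% and 0.280% in the knockout. All knockout libraries were below all controls, at 0.637 times the control mean (exact permutation test, p = 0.1). The difference was -0.19 points, and -0.30 points with distinct sequences counted once each. With 24 to 32 nt reads the means were 0.652% in controls and 0.652% in the knockout and the genotypes overlapped. Reads of 24 nt made up 6.05% to 7.12% of all ancient reads in controls and 6.47% to 11.5% in the knockout. Most of them shared a miRNA stretch, and in knockout replicate 1 only 2107 of 16775 did not. Without miRNA-sharing reads, 24 nt held 5.02% to 5.69% of ancient reads in controls and 3.86% to 4.71% in the knockout, lower without overlap. By family the means were 0.205% and 0.136% for L2, 0.297% and 0.184% for MIR, and 0.0234% and 0.0141% for CR1, in controls and knockout (p = 0.1 each, adjusted p = 0.1 over 3 families, exact permutation test). The denominator moved as well. IAPEz-int was 8.81%, 6.83% and 5.79% of TE-annotated 25 to 30 nt reads in controls and 17.8%, 22.5% and 18.7% in the knockout.

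The 25 to 30 nt reads of each part were then set against all 18 to 32 nt reads. Reads of other lengths counted only in the total. Ancient repeats without miRNA-sharing reads were 0.131% ± 0.00508 (SD, n = 3) in controls and 0.0681% ± 0.00711 in the knockout, 0.522 times as much. Reads with no annotation were 3.27% ± 0.143 and 1.64% ± 0.208, 0.501 times. L1Md_T reads were 3.16% ± 0.313 and 3.14% ± 1.05, 0.994 times, and those of IAPEz-int 1.90% ± 0.364 and 4.72% ± 0.635, 2.49 times. Ancient repeats and reads with no annotation were lower in every knockout library than in every control, L1Md_T overlapped between genotypes, and IAPEz-int was higher in every knockout library. The exact permutation tests gave p = 0.1, 0.1, 1 and 0.1, in that order.

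Ancient repeat reads were also set against reads with no annotation of the same lengths. With all reads there were 4.36, 4.28 and 4.21 ancient reads per 100 reads with no annotation in control replicates 1, 2 and 3 and 4.57, 5.24 and 4.70 in the knockout. The knockout libraries were above all controls, at 1.13 times the control mean (exact permutation test, p = 0.1). The miRNA-sharing reads were then left out of the ancient side only. There were 4.05, 3.98 and 3.96 ancient reads per 100 reads with no annotation in control replicates 1, 2 and 3 and 4.08, 4.41 and 4.04 in the knockout. The genotypes overlapped and the means differed by a factor of 1.04 (exact permutation test, p = 0.2).

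The length profile differed between genotypes as well. Of all 18 to 32 nt ancient reads, 16.6%, 15.7% and 19.1% were 25 to 30 nt in control replicates 1, 2 and 3 and 9.81%, 6.59% and 9.86% in the knockout (exact permutation test, p = 0.1). Without miRNA-sharing reads the values were 36.8%, 40.3% and 40.6%, and 28.6%, 21.3% and 24.5%. The groups were apart in both. The difference of -8.39 points with all reads was -13.2 points with distinct sequences counted once each.

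Per repeat name, 25 to 30 nt reads were compared in a fit over all TE names with edgeR, using the quasi-likelihood test, TMM scaling and an adjusted p under 0.01 as a call. Of 14 member names that passed the count filter 0 were called. An unadjusted edgeR p under 0.05 was found for 2 of these 14 and for 178 of all 749 names tested. Over all 749 names tested 0.134% were called, a single name, the endogenous retrovirus IAPA_MM-int, named after its values were seen. The edgeR test gave 0 calls over all names with the replicate number as a block, when any 1 control replicate was left out and when knockout replicate 1 was. DESeq2 called 0 of the 9 member names to which it gave an adjusted p, against 13.6% of the 426 names with one. The 8 member names below the filter of the edgeR fit, all of CR1, had 2 to 73 reads over the 6 libraries.

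The scaling set the direction. With TMM the median log2 fold change was 0.17 over the members and -0.00028 over all names. Of the 14 member names, 12 were then on the higher side in the knockout. With total TE counts as library size the median over all names was -0.88 and that over the members -0.69, with 0 member names on the higher side. As a share of TE reads, 10 of the 14 member names were lower in every knockout library than in every control. The same held for 73.6% of the names tested, and groups were apart in either direction for 75.3%. MIR, for example, held 0.102%, 0.0846% and 0.0924% of TE-annotated 25 to 30 nt reads in control replicates 1, 2 and 3 and 0.0489%, 0.0687% and 0.0440% in the knockout. All 3 knockout values were below the controls, yet its log2 fold change with TMM scaling was 0.06 ± 0.15 (SE) with an adjusted p of 0.857 by edgeR.

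Among the MIR names MIRb, MIR and MIRc had the most 25 to 30 nt reads, with mean shares of 0.0801%, 0.0734% and 0.0560% of TE reads. L2a, L2 and L2c led in L2, with 0.0577%, 0.0417% and 0.0403%. L3, L3b and X7C_LINE led in CR1, with 0.0129%, 0.00360% and 0.000622%. L2c and MIRc had the lowest unadjusted p, 0.0126 and 0.0214, with log2 fold changes of 0.75 ± 0.22 (SE) and 0.48 ± 0.16 and adjusted p of 0.116 and 0.146 by edgeR. They also held the most miRNA-sharing reads, 48.6% and 20.8% of their 25 to 30 nt reads over the 6 libraries. Without these the log2 fold changes were 0.16 and 0.21, with adjusted p of 0.664 and 0.333 by edgeR. Of the other names, L2a had 7.45% of such reads and the rest at most 1.65%.

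**Figure D5:**
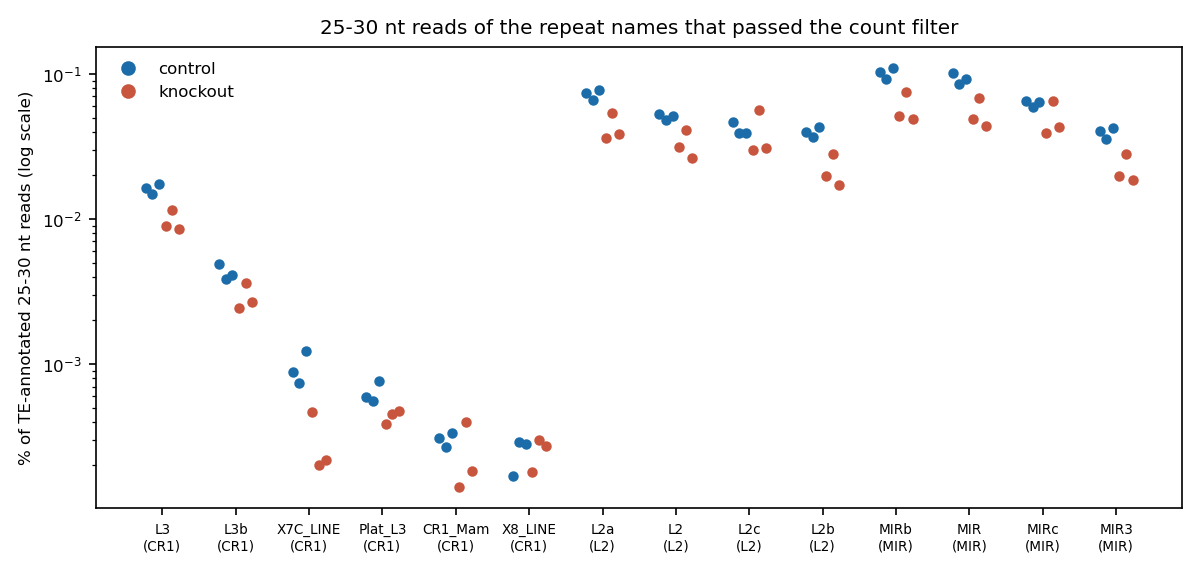
Share (%, log scale) of TE-annotated 25 to 30 nt reads held by each of the 14 repeat names that passed the count filter, 1 point per library (blue control, red knockout), families in brackets. The knockout points lie below all control points for 10 of the 14 names, and overlap them for L2c, MIRc, CR1_Mam and X8_LINE. The same held for 73.6% of all 749 TE names tested.

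The 25 to 30 nt reads of X7C_LINE numbered 31, 172 and 66 in control replicates 1, 2 and 3 and 23, 4 and 12 in the knockout, and its log2 fold change was -0.66 ± 0.34 (SE, adjusted p of 0.277 by edgeR). That value was -0.0061 with sequences of a single TE name, -1.20 when knockout replicate 1 was left out and 0.37 when distinct sequences were counted once each. With total counts in place of TMM it was -1.58, with an adjusted p of 0.00485 by edgeR, but 50.6% of all 749 names were called under that scaling and the median log2 fold change over all names was -0.88.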

How the data were processed

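Small RNA was measured in 6 libraries. Per the labels and methods, the authors trimmed reads with cutadapt 1.8.1, collapsed them and annotated sequences with Bowtie 1.2.1.1, TEs from RepeatMasker with up to 3 mismatches, and deposited read counts per sequence without normalisation. Other columns used were read length, name, family, class and type. Repeated rows were dropped. Counts have no molecular identifiers. Whether replicates came from separate litters was not given, so p-values measure the spread between these libraries.

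Exact matches to GRCm38.p6 were sought for sequences of ancient repeats, L1Md_T and IAPEz-int, and genes were those of GENCODE. A read shared a miRNA when 16 bases were identical to a mature miRNA of the tables. Tests were two-sided exact permutation tests, exact sign-flip tests over libraries, and edgeR 4.0.16 (R 4.3.3) on 25 to 30 nt counts per TE name, with Benjamini-Hochberg adjustment, tested on simulated data; DESeq2 1.42.0 was an alternative. Python 3.11.15, pandas 2.3.3 and numpy 2.4.6 were used. The rule for the members reads annotation only, but members, lists and tests were chosen with earlier results of these data known. Named repeats were the 3 highest of each family by mean share, any name past the threshold, L1Md_T and IAPEz-int. Sequences printed were drawn from the 10 highest over all members and, chosen after their values were seen, the 5 highest without a miRNA stretch and the highest CR1 sequence with 1 place. The CR1 sequence of highest share matches several places and is not printed. Others named were chosen after their values were seen. Replicate numbers did not pair the samples: the correlations of deviations from the group mean between same-numbered libraries were -0.23, -0.17 and 0.11. Depth was 11184854 to 83102785 reads of 18 to 32 nt. The deposited counts of long RNA on 359 repeat consensus sequences held 0 of the member names, so that comparison was not run, and gene counts were not used.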

Additional observations from a re-analysis of the deposited data

How the results depend on the processing

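The alternatives were changes of length range, filter, scaling, library size, counting and denominator, a block for the replicate number, and leaving out 1 library at a time. With 24 to 32 nt reads the ancient share of TE reads differed between genotypes by 0.000394 points, against -0.19 with 25 to 30 nt, and T at base 1 against L1Md_T and IAPEz-int turned to -1.45 and -3.25 points. Most 24 nt ancient reads shared a miRNA stretch, and this length range was not run without such reads. Without miRNA-sharing reads T at base 1 differed between genotypes by 0.637 points, against -4.84. It was -0.50 with each distinct sequence counted once, -0.77 with 26 to 29 nt, -3.40 with 24 to 32 nt and -2.44 without the 10 highest sequences. With distinct sequences the ancient share of TE reads differed by -0.30 and the 25 to 30 nt share by -13.2, against -8.39 with reads. A at base 10, -3.38 between genotypes, was -8.43 with 24 to 32 nt and -2.01 with distinct sequences. Against L1Md_T distinct sequences gave -34.2, 23.9 and -14.4 points for length, T at base 1 and A at base 10 (-67.8, 10.2 and -26.3 with reads), and against IAPEz-int -33.0, 24.9 and -18.8 (-67.7, 8.25 and -24.2). The exact permutation tests between genotypes cannot reach 0.05 under any alternative, so no p speaks of stability.

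Member names past the edgeR threshold were 0, and 4 with total counts, 9 with all 18 to 32 nt reads, 7 with 21 to 23 nt reads and 7 with mature miRNA reads as library size; the median log2 fold change of members was then -0.69, -0.85, -0.94 and -0.95. The member counts were each out of 14. For all names 1 was called, and 379, 376, 350 and 361 under these scalings, or 50.6%, 50.5%, 47.2% and 48.7% of the names tested. The count was 58 with DESeq2, 4 with no filter, 4 with at least 10 counts in every library, 2 with 24 to 32 nt, 4 with 26 to 29 nt, 29 with distinct sequences counted once, 5 with sequences of a single name and 24 at an adjusted p under 0.05. With the replicate number as a block it was 0, and 0 for members; the block gave p = 0.25, the smallest possible, for each share in an exact sign-flip test.

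Leaving out 1 library gave 0 to 25 calls over all names, the highest without knockout replicate 2, and 0 for members. Against L1Md_T it gave -68.9 to -66.4 points for the 25 to 30 nt share, 9.38 to 11.3 for T at base 1 and -26.8 to -26.0 for A at base 10. Against IAPEz-int it gave -69.1 to -66.2, 7.24 to 9.65 and -24.6 to -23.4. With 5 libraries the smallest p is 0.0625, so none passed 0.05. Between genotypes the ancient share of TE reads moved from -0.24 to -0.16 points. The 25 to 30 nt share moved from -9.10 to -7.31, T at base 1 from -5.97 to -4.16 and A at base 10 from -4.09 to -2.66. A TE-annotated read can match several copies, and low counts limit the CR1 names.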
